A study of Mus musculus with 12 samples.

Results

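This section describes the genes of the AMPA receptor in hippocampal cultures after knockdown of the long non-coding RNA *Neuid* (Gm10419). The genes were chosen by name, as the pore-forming subunits (*Gria1* to *Gria4*), the type I TARPs (*Cacng2*, *Cacng3*, *Cacng4* and *Cacng8*), a cornichon (*Cnih2*) and a CKAMP protein (*Shisa9*). They were 10 of the 55471 genes in the deposited table, and 10 of 10 passed the filter on low counts. Total RNA was sequenced from primary hippocampal neurons of wild-type (WT) mice, grown in Neurobasal medium with B27. At DIV 7 (days in vitro) the cultures received either control gapmers, which have no known target, or gapmers that target *Neuid* (*Neuid* KD), and RNA was taken at DIV 10, after 72 h. Each group held 6 libraries. Such cultures contain glia as well as neurons, the libraries give 1 value for the mixture, and reads were counted per gene and not per splice form.

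AMPA receptors are tetramers that carry most of the fast excitatory current at brain synapses. Their subunit composition sets how much calcium they pass, and auxiliary proteins bound to the pore set how they are delivered to the membrane, how they gate and how they are held at the synapse. In hippocampal pyramidal neurons receptors built from the products of *Gria1* and *Gria2* predominate, and oligodendrocyte precursors and other glia also carry AMPA receptors.

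The treatment was visible in the target. *Neuid* lay between 26.0 and 31.0 CPM (read counts scaled by library size) under control gapmers, with a median of 28.3, and between 6.32 and 9.55 CPM under *Neuid* gapmers, with a median of 8.08. No *Neuid* KD library reached the lowest control library, and *Neuid* fell by 1.81 on the log2 scale (adjusted p = 1.3e-10 from the quasi-likelihood test of edgeR, standard error 0.0845). A two-sided exact permutation test gave p = 0.00216, the smallest that 6 libraries against 6 allow.

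Some libraries stood apart from the others. Counted reads lay between 18002585 and 30914714 in control libraries (median 22173562) and between 11152556 and 30573480 in *Neuid* KD libraries (median 23606763), and the lowest was *Neuid* KD replicate 1. Reads on chemosensory receptor genes, taken as a measure of background reads, were between 26.0 and 653 CPM in control and between 26.9 and 604 CPM in *Neuid* KD. They reached 100 CPM in 7 libraries (4 control and 3 *Neuid* KD) and stayed under it in 5 (2 control and 3 *Neuid* KD). *Neuid* KD replicate 1 had both the fewest reads and the highest background of its group, and it was the lowest of its group in 8 of the 10 AMPA receptor genes. Control replicate 1, with the highest background of all 12 libraries, was the lowest control library in 8 of the 10. Results that rest on *Neuid* KD replicate 1 are therefore given with and without it.

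Among the 10 AMPA receptor genes, 0 were called at an adjusted p under 0.05 by edgeR, where 8.72% of all 19578 tested genes were called (1235 or 6.31% higher and 473 or 2.42% lower in *Neuid* KD). At an unadjusted p under 0.05 the count was 1 of 10, *Gria1*, beside 18.8% of all tested genes, and DESeq2 gave the same counts of 0 and 1. An absolute log2 fold change above 0.5 as well was reached by 0 of 10, beside 3.23% of all tested genes. In 0 of 10 genes were the groups free of overlap, as they were in 5.7% of all tested genes. The fitted log2 fold changes of the 10 genes ran from -0.15 (*Cacng3*) to 0.19 (*Gria1*), with 5 positive and 5 negative values and a median of 0.0049, beside a median of -0.027 over all tested genes. Of the 5487 tested genes whose mean reached 30 CPM, 14.6% were called, and their median log2 fold change was 0.040. The p-values measure the spread between these libraries, which may be technical, since the labels do not say whether the libraries came from separate cultures or litters.

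**Figure D1:**
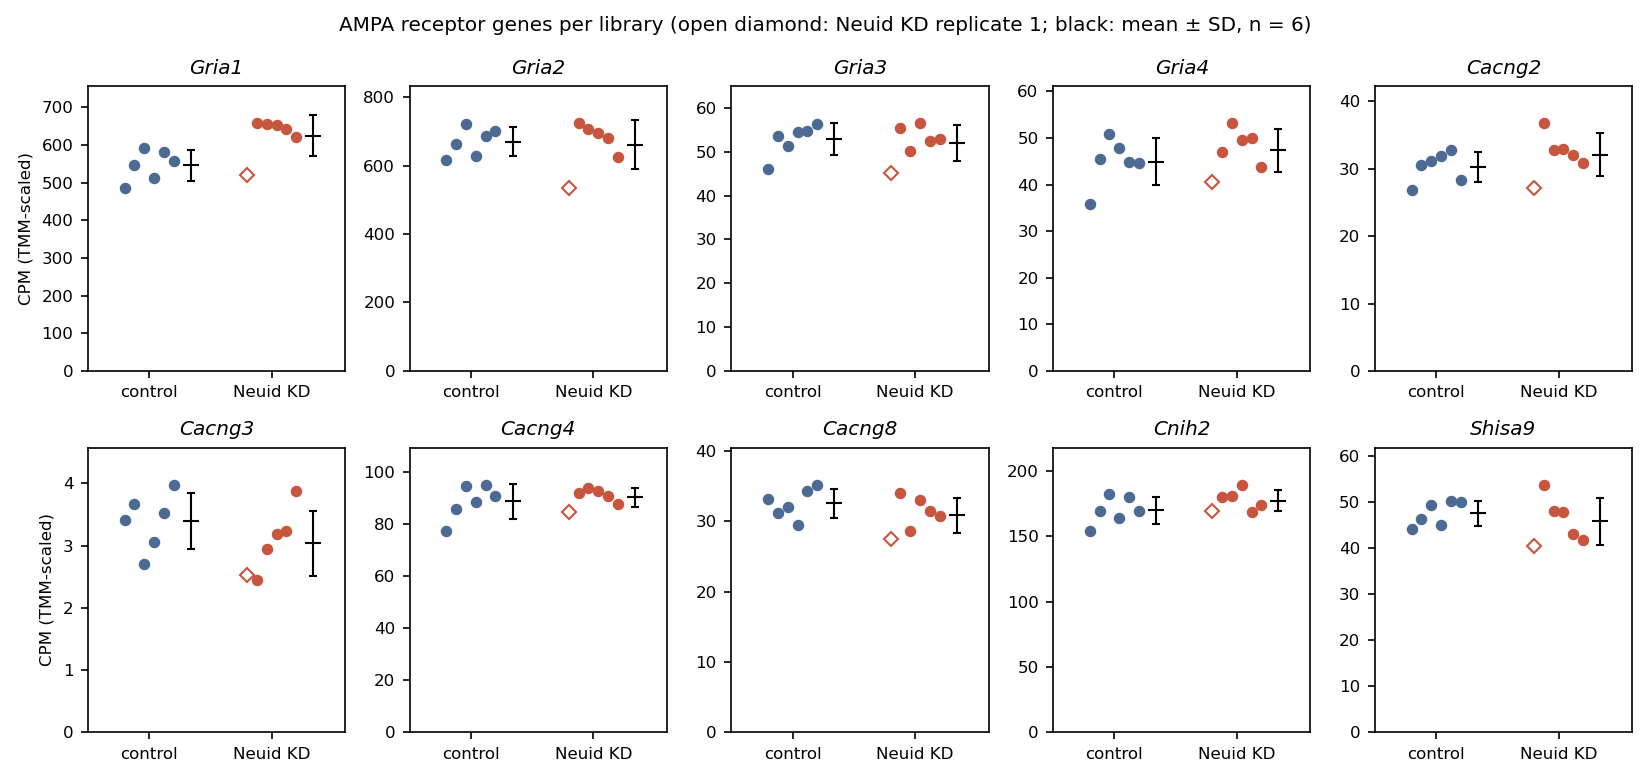
Level of each of the 10 AMPA receptor genes in CPM in the 6 control (blue) and 6 *Neuid* KD (red) libraries, with mean and SD in black and *Neuid* KD replicate 1 as an open diamond. In *Gria1* the other 5 *Neuid* KD libraries, from 621 to 658 CPM, lie above every control library, while in the other 9 genes the groups are interleaved.

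Of the pore-forming subunits, *Gria1* encodes GluA1, whose cytoplasmic tail is phosphorylated during long-term potentiation. In GRCm38 it spans 57011387 to 57330244 of chromosome 11, plus strand. *Gria1* was between 485 and 591 CPM in control libraries, with a median of 553, and from 519 to 658 CPM in *Neuid* KD libraries, with a median of 648. In 5 of the 6 *Neuid* KD libraries it was above every control library, and *Neuid* KD replicate 1, at 519 CPM, lay within the control range. Control had a mean of 546 ± 41.1 CPM, and *Neuid* KD one of 625 ± 53.6 CPM (SD, n = 6), or 114% of control. The log2 fold change was 0.19 (standard error 0.064, 95% confidence interval 0.059 to 0.33), with an unadjusted p of 0.00787 and an adjusted p of 0.0769 in edgeR, and so it was not called.

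The call on *Gria1* depended on 1 library and on the model. Without *Neuid* KD replicate 1 the log2 fold change was 0.20 (95% confidence interval 0.11 to 0.30) and *Gria1* was called, with an adjusted p of 0.00745 in edgeR, and the remaining *Neuid* KD libraries did not overlap with control. Within the 5 libraries under 100 CPM of background, the control libraries were at 583 and 591 CPM and the *Neuid* KD libraries between 654 and 658 CPM, with a log2 fold change of 0.13 and an adjusted p of 0.00349 in edgeR. Within the 7 libraries at or over 100 CPM the log2 fold change was 0.19, with a 95% confidence interval of -0.029 to 0.40, and *Gria1* was not called. Over 24 alternatives of scaling, filter, model and libraries the log2 fold change of *Gria1* was between 0.13 and 0.23, its adjusted p was between 0.00233 and 1.00, and it was called in 8 of the 24.

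**Figure D2:**
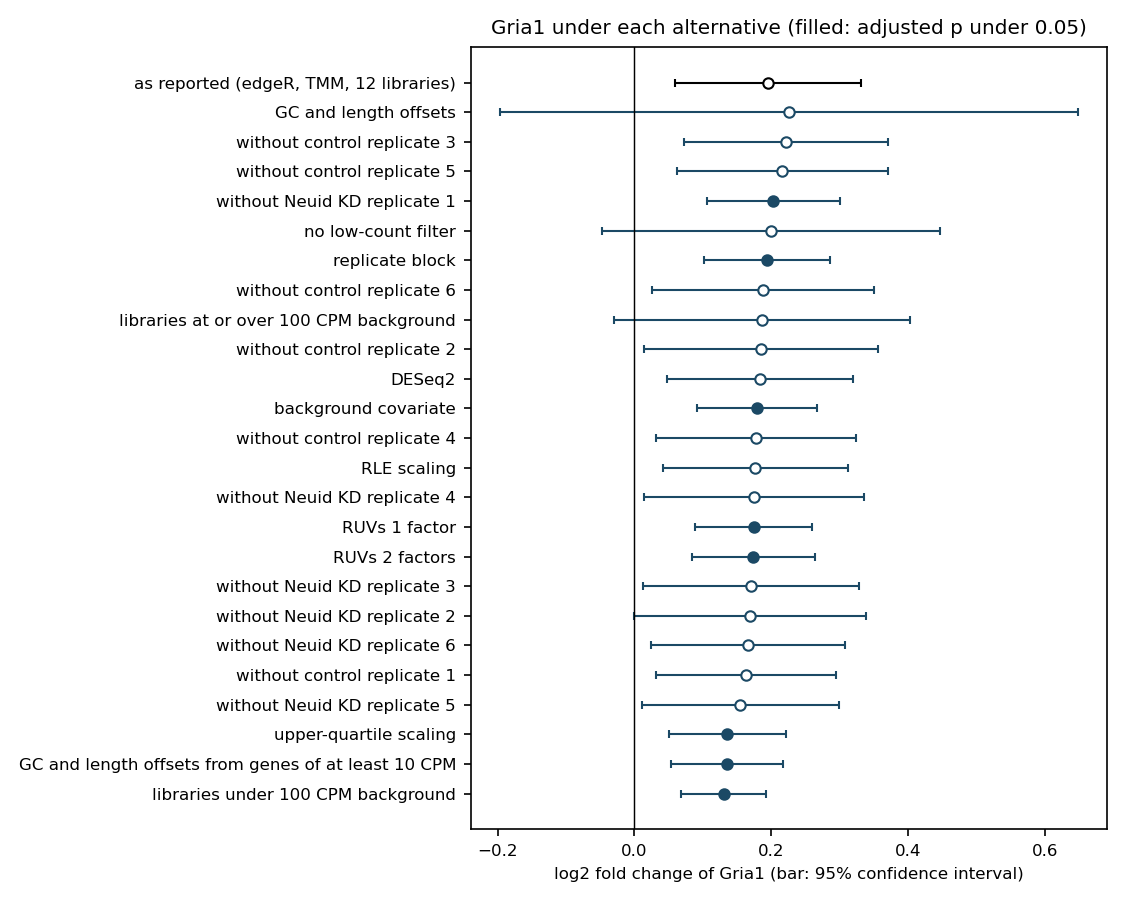
Log2 fold change of *Gria1* with its 95% confidence interval, *Neuid* KD against control, as reported (top) and under each of 24 alternatives, with filled points for an adjusted p under 0.05. The estimates lie between 0.13 and 0.23, and 8 of the 24 are filled.

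*Gria2* encodes GluA2, the subunit whose edited form keeps calcium out of the channel. It spans 80681450 to 80802835 of chromosome 3, minus strand. *Gria2* lay between 615 and 722 CPM in control libraries (median 675) and from 534 to 724 CPM in *Neuid* KD libraries (median 689). The groups overlapped, and *Neuid* KD replicate 1, at 534 CPM, was the only *Neuid* KD library below every control library. Its log2 fold change was -0.018 (95% confidence interval -0.16 to 0.13, adjusted p = 0.933 in edgeR), and it was 0.0084 without control replicate 3.

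*Gria3* and *Gria4* encode GluA3 and GluA4, of which the first pairs with GluA2 in adult pyramidal neurons and the second is prominent in interneurons and in young neurons. *Gria3* was between 46.2 and 56.4 CPM in control (median 54.1) and between 45.0 and 56.5 CPM in *Neuid* KD (median 52.7), with a log2 fold change of -0.016 (95% confidence interval -0.14 to 0.11, adjusted p = 0.933 in edgeR). *Gria4* was between 35.9 and 50.8 CPM in control (median 45.2) and between 40.6 and 53.2 CPM in *Neuid* KD (median 48.3), with a log2 fold change of 0.079 (95% confidence interval -0.085 to 0.24, adjusted p = 0.718 in edgeR). In both genes the groups overlapped. *Gria2*, *Gria3*, *Gria4* and the TARP gene *Cacng8* hold short annotated genes on their own strand, whose reads cannot be separated from theirs with counts per gene.

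The type I TARPs bind the pore, slow its closing and tie it to scaffold proteins of the postsynaptic density. *Cacng2* encodes stargazin, the founding TARP, and was between 26.9 and 32.8 CPM in control (median 30.9) and between 27.1 and 36.8 CPM in *Neuid* KD (median 32.4). Its log2 fold change was 0.090 (95% confidence interval -0.052 to 0.23, adjusted p = 0.582 in edgeR). *Cacng8*, the TARP most characteristic of the hippocampus, was between 29.5 and 35.2 CPM in control (median 32.5) and between 27.4 and 34.0 CPM in *Neuid* KD (median 31.0). The groups overlapped in both, and the log2 fold change of *Cacng8* was -0.071 (95% confidence interval -0.20 to 0.057, adjusted p = 0.652 in edgeR).

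*Cacng4*, a TARP known from the developing brain and from glia, was between 77.4 and 95.2 CPM in control (median 89.7) and between 84.6 and 94.1 CPM in *Neuid* KD (median 91.5). The *Neuid* KD libraries all lay inside the control range. Its log2 fold change was 0.026 (95% confidence interval -0.088 to 0.14, adjusted p = 0.878 in edgeR), but it was negative under 3 changes of scaling or libraries and when *Neuid* KD replicate 5 or control replicate 1 was left out (-0.0070 and -0.0097). *Cacng3*, a cortical TARP close in sequence to *Cacng2*, was the least abundant, at 2.70 to 3.98 CPM in control (median 3.46) and 2.44 to 3.87 CPM in *Neuid* KD (median 3.06). With 30 to 91 reads per library its interval was the widest of the 10 genes: the log2 fold change was -0.15 (95% confidence interval -0.49 to 0.18, adjusted p = 0.727 in edgeR).

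*Cnih2* encodes a cornichon, which helps AMPA receptors leave the endoplasmic reticulum and slows their deactivation at the surface. It was between 154 and 183 CPM in control (median 170) and between 169 and 190 CPM in *Neuid* KD (median 177). The groups overlapped, and the log2 fold change was 0.059 (95% confidence interval -0.048 to 0.17, adjusted p = 0.654 in edgeR), or -0.011 within the libraries under 100 CPM of background. *Shisa9* encodes a CKAMP protein, which slows the recovery of the receptor from desensitization in granule cells of the dentate gyrus. It was between 44.2 and 50.3 CPM in control (median 48.0) and between 40.4 and 53.9 CPM in *Neuid* KD (median 45.5), so that the *Neuid* KD libraries spread to both sides of control. Its log2 fold change was -0.050 (95% confidence interval -0.19 to 0.091, adjusted p = 0.806 in edgeR), and 0.00090 with offsets for GC content and exon length.

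**Figure D3:**
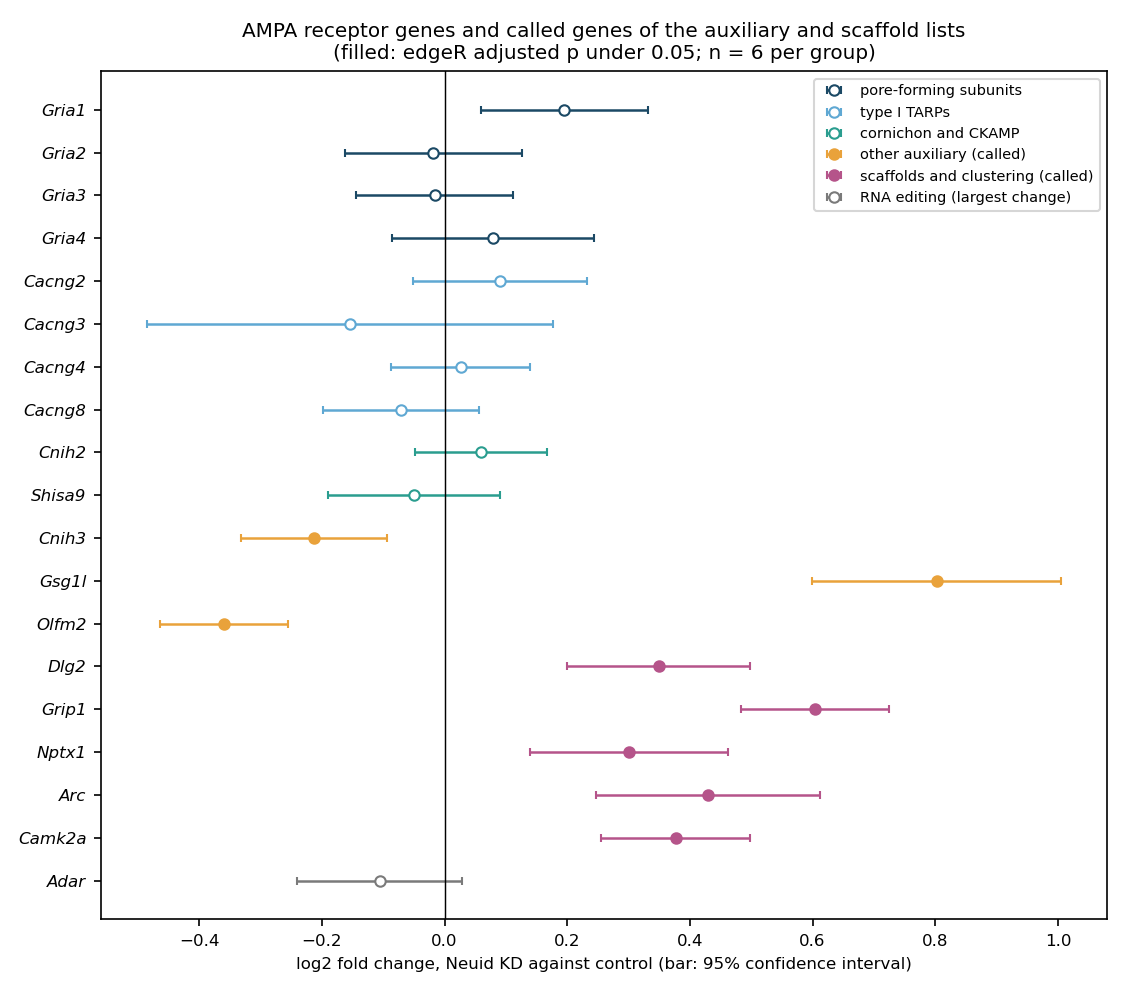
Log2 fold change of *Neuid* KD against control with its 95% confidence interval for the 10 AMPA receptor genes, the called genes of the auxiliary and scaffold lists and *Adar*, filled where the adjusted p of edgeR was under 0.05. Of the 10 AMPA receptor genes 0 are filled, and *Gria1*, at 0.19, has the only interval among them that leaves out 0.

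To compare levels between genes, CPM was divided by the exon length of each gene in kb. *Cnih2* was highest in control libraries at 124 ± 7.58 CPM per kb (SD, n = 6), which placed it at percentile 99.2 of the tested genes. *Gria1* followed at 90.4 ± 6.79 CPM per kb and *Gria2* at 43.1 ± 2.70 CPM per kb. Their order rests on the annotated exon lengths, 6043 nt for *Gria1* and 15548 nt for *Gria2*. In CPM *Gria2* was the higher, with a control mean of 670 against 546 for *Gria1*. The TARPs *Cacng4* and *Cacng8* came next, with means of 24.8 and 13.9 CPM per kb, ahead of *Shisa9* at 9.08, *Gria4* at 7.13, *Cacng2* at 5.50 and *Gria3* at 5.36 CPM per kb. *Cacng3* was last at 1.22 ± 0.163 CPM per kb, at percentile 40.8. The order was the same in *Neuid* KD libraries. In control libraries *Gria4* overlapped with *Cacng2*, and *Cacng2* with *Gria3*, and in *Neuid* KD libraries *Shisa9* also overlapped with *Gria4*, so these neighbours were not separated beyond their spread.

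Within the family of pore-forming subunits, each library gives a share of the summed CPM per kb of *Gria1* to *Gria4*. The size of these shares rests on the exon lengths too. *Gria1* made up 61.3% to 62.9% of this sum in control libraries (median 61.9%) and 64.6% to 66.2% in *Neuid* KD libraries (median 65.0%). *Gria2* made up 28.8% to 30.4% in control (median 29.4%) and 25.9% to 27.6% in *Neuid* KD (median 26.9%). All 6 *Neuid* KD libraries, replicate 1 included, thus had a higher share of *Gria1* and a lower share of *Gria2* than any control library. Shares of a library add up to a fixed total, so the lower share of *Gria2* is not a separate result. In CPM *Gria2* overlapped between the groups, with a log2 fold change of -0.018. The shares of *Gria3* (medians 3.68% and 3.39%) and *Gria4* (medians 4.82% and 4.79%) overlapped between the groups.

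The ratio of *Gria1* to *Gria2* uses reads of the same library only, so the scaling of the library cancels. In CPM per kb it was between 2.03 and 2.19 in control libraries (median 2.10) and between 2.34 and 2.56 in *Neuid* KD libraries (median 2.42). The groups did not overlap, and *Neuid* KD replicate 1 lay among the other *Neuid* KD libraries. The log2 fold change of *Gria1* was 0.21 above that of *Gria2*, 0.15 above it within the libraries under 100 CPM of background and 0.27 above it within those at or over 100 CPM, the lowest and highest values over the 24 alternatives. The shares and the ratio, which was added after seeing the data, are a description and were not tested.

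The 4 TARPs showed no such separation. *Cacng4* held a median of 54.7% of their summed CPM per kb in control and 55.3% in *Neuid* KD, and *Cacng8* held 30.1% and 29.3%. *Cacng2* held 12.2% and 12.7%, and *Cacng3* 2.77% and 2.38%, and in each of the 4 the groups overlapped. Their sum had a mean of 45.4 ± 2.40 CPM per kb in control and 45.3 ± 2.33 CPM per kb in *Neuid* KD (SD, n = 6), while the sum over *Gria1* to *Gria4* had medians of 148 and 165 CPM per kb with overlapping groups.

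**Figure D4:**
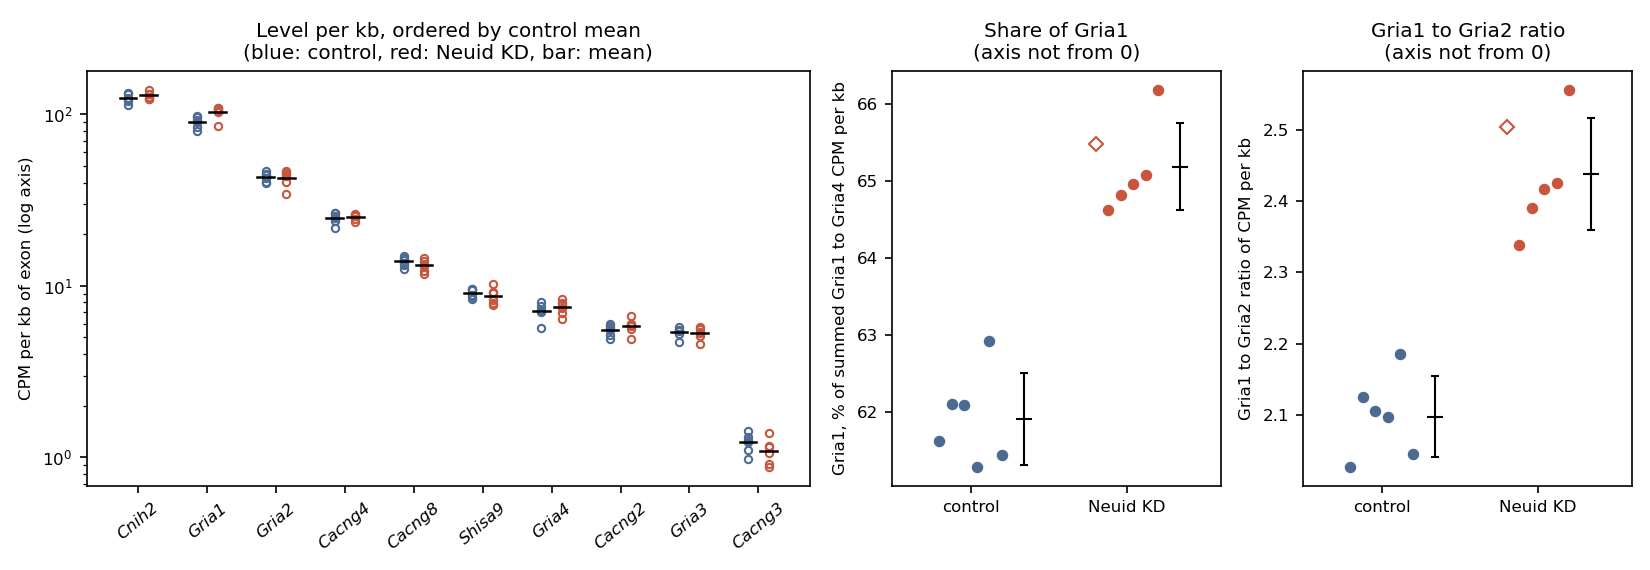
Left, level of the 10 AMPA receptor genes in CPM per kb of exon (log axis) in control (blue) and *Neuid* KD (red) libraries. Middle and right, share of *Gria1* in the summed CPM per kb of *Gria1* to *Gria4* and ratio of *Gria1* to *Gria2* per library with mean and SD (axes not from 0, open diamond *Neuid* KD replicate 1): shares of 61.3% to 62.9% in control and 64.6% to 66.2% in *Neuid* KD.

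Other genes of the receptor and its surroundings were read from 4 lists. Of their 59 genes 58 were tested, and 10 rose and 2 fell at an adjusted p under 0.05, with a median log2 fold change of 0.039. These calls were 20.7% of the tested genes of the lists, beside 8.72% of all tested genes and 14.6% of those whose mean reached 30 CPM. The groups did not overlap in 7 of the 58, beside 5.7% of all tested genes and 509 of the 5487 whose mean reached 30 CPM. Offsets for GC content and exon length left 2 of these 12 calls, among them *Gsg1l*, the libraries at or over 100 CPM of background left 6 (those under it gave 18 calls, with 11 of the 12 among them), and testing without the filter on low counts left 5. With the offsets, calls over all tested genes also went from 1235 higher and 473 lower to 346 and 78, and *Grip1*, for example, stood at 0.61 on the log2 scale and was not called (adjusted p = 0.0539 in edgeR).

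The list of other auxiliary and complex constituents held 22 genes, of which 1 rose and 2 fell (13.6%, beside 8.72% of all tested genes), with a median log2 fold change of -0.017. With upper-quartile scaling 1 was called higher and 5 lower, and with 1 or 2 RUVs factors 3 were called higher and 4 lower. *Gsg1l*, which encodes an auxiliary protein that dampens AMPA receptor currents, was between 7.37 and 11.6 CPM in control (median 8.70) and between 13.6 and 17.2 CPM in *Neuid* KD (median 16.2). It was higher in 6 of 6 *Neuid* KD libraries than in any control library, with a log2 fold change of 0.80 (adjusted p = 1.6e-05 in edgeR, standard error 0.096), and it was called in 24 of 24 alternatives. *Olfm2*, an olfactomedin found in native receptor complexes, was between 50.6 and 59.6 CPM in control (median 57.6) and between 41.8 and 45.2 CPM in *Neuid* KD (median 43.7). It fell without overlap, with a log2 fold change of -0.36 (adjusted p = 8.0e-05 in edgeR, standard error 0.050).

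The second cornichon of the lists, *Cnih3*, was between 36.1 and 42.5 CPM in control (median 41.6) and between 31.6 and 37.0 CPM in *Neuid* KD (median 34.9). The groups overlapped, and *Cnih3* fell with a log2 fold change of -0.21 (adjusted p = 0.0228 in edgeR, standard error 0.056). That call was lost when *Neuid* KD replicate 2 or 3 or control replicate 2, 3, 5 or 6 was left out, with log2 fold changes from -0.24 to -0.20 and an adjusted p of up to 0.0950. A pair of CKAMP relatives was not called with all libraries in edgeR with TMM scaling and was called without *Neuid* KD replicate 1: *Shisa6*, with 0.34 on the log2 scale (adjusted p = 0.00377 in edgeR), and *Shisa7*, with -0.17 (adjusted p = 0.0188 in edgeR). Other alternatives called them too: *Shisa6* was called in 6 and *Shisa7* in 7 of 24 alternatives, with RUVs factors, the background covariate or only the libraries under 100 CPM of background among them, and the adjusted p ran up to 1.00 in both. With all libraries *Shisa6* stood at 0.30 (adjusted p = 0.0921 in edgeR) and *Shisa7* at -0.21 (adjusted p = 0.148 in edgeR). Both were named after their values had been seen.

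Among 20 genes of scaffolds, anchoring and clustering, with a median log2 fold change of 0.062, 5 rose and 0 fell in edgeR (2 were called lower with upper-quartile scaling, and 1 with RUVs factors) and 7 had an unadjusted p under 0.05, where over all tested genes 8.72% were called and 18.8% had such a p. *Grip1*, a PDZ scaffold that binds the tails of GluA2 and GluA3, was between 29.6 and 38.7 CPM in control (median 34.4) and between 48.1 and 54.4 CPM in *Neuid* KD (median 52.3). The groups did not overlap and the log2 fold change was 0.60 (adjusted p = 9.6e-07 in edgeR, standard error 0.057). *Camk2a*, a kinase subunit that phosphorylates the receptors during potentiation, was between 603 and 755 CPM in control (median 712) and between 824 and 938 CPM in *Neuid* KD (median 925). Here too the *Neuid* KD libraries cleared the control libraries without overlap, with a log2 fold change of 0.38 (adjusted p = 2.2e-04 in edgeR, standard error 0.057).

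*Arc*, an activity-induced gene whose product promotes endocytosis of AMPA receptors, was between 10.5 and 15.2 CPM in control (median 13.6) and between 15.3 and 19.6 CPM in *Neuid* KD (median 17.7). The groups did not overlap, by a narrow margin, and the log2 fold change was 0.43 (adjusted p = 0.00302 in edgeR, standard error 0.086). *Dlg2*, a membrane-associated guanylate kinase that binds TARPs, was between 286 and 365 CPM in control (median 352) and between 359 and 465 CPM in *Neuid* KD (median 447). Its groups overlapped through *Neuid* KD replicate 1, and it rose with a log2 fold change of 0.35 (adjusted p = 0.00317 in edgeR, standard error 0.070). Without that library it was 0.36 (adjusted p = 1.6e-04 in edgeR), and the groups did not overlap.

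*Nptx1*, a secreted pentraxin that clusters receptors from outside the cell, was between 136 and 179 CPM in control (median 149) and between 155 and 208 CPM in *Neuid* KD (median 193). It rose with a log2 fold change of 0.30 (adjusted p = 0.0176 in edgeR, standard error 0.076). The call was lost when *Neuid* KD replicate 2, 3, 4, 5 or 6 or control replicate 2 or 6 was left out, with log2 fold changes from 0.26 to 0.29 and an adjusted p of up to 0.137. Without *Neuid* KD replicate 1 it was 0.31, with an adjusted p of 0.00335 in edgeR, and the groups did not overlap.

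RNA editing of *Gria2* depends on adenosine deaminases, and of the 3 tested genes of this family 0 were called by edgeR (0 at an unadjusted p under 0.05). Over all tested genes 8.72% were called and 18.8% had such a p, so 0 of 3 says little about the family. The largest difference was that of *Adar*, which was between 104 and 122 CPM in control (median 110) and between 86.4 and 111 CPM in *Neuid* KD (median 107). Its log2 fold change was -0.11 (95% confidence interval -0.24 to 0.029, adjusted p = 0.437 in edgeR). *Adar* was called in 2 of 24 alternatives, upper-quartile scaling and offsets for GC content and length fitted on abundant genes, with a log2 fold change of -0.17 in each. Editing itself cannot be read from counts per gene.

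For the other ionotropic glutamate receptors, 13 of 14 subunit genes were tested, and *Grin3b* was below the filter. Of these 13, 4 rose and 0 fell in edgeR with TMM scaling (9 had an unadjusted p under 0.05, beside 8.72% called and 18.8% at an unadjusted p under 0.05 over all tested genes), with a median log2 fold change of 0.032. The 0 depended on the scaling, with 1 gene called lower under RLE scaling or in DESeq2 and 3 under upper-quartile scaling, beside 4 called higher in each. Values are given for 3 of the 4. *Grid1*, a delta receptor that organizes synapses, was between 55.9 and 65.5 CPM in control (median 62.3) and between 63.9 and 77.3 CPM in *Neuid* KD (median 75.3). It rose with a log2 fold change of 0.26 (adjusted p = 0.00673 in edgeR, standard error 0.057), and the call was lost without *Neuid* KD replicate 2 or 4 (0.24 in each, adjusted p of up to 0.0657). Among the *Neuid* KD libraries only replicate 1, at 63.9 CPM, lay within the control range. With that library left out *Grid1* stood at 0.25 (adjusted p = 0.00183 in edgeR), and the groups did not overlap.

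The kainate receptor subunit *Grik3* was between 42.1 and 47.6 CPM in control (median 45.7) and between 45.0 and 58.4 CPM in *Neuid* KD (median 56.8). Only *Neuid* KD replicate 1 lay within the control range, and *Grik3* rose with a log2 fold change of 0.28 (adjusted p = 0.00502 in edgeR, standard error 0.059). Without that library it was again 0.28 (adjusted p = 1.6e-04 in edgeR), and the groups did not overlap. *Grik4*, a high-affinity kainate subunit, was between 32.8 and 41.9 CPM in control (median 37.1) and between 39.2 and 46.8 CPM in *Neuid* KD (median 45.1). It rose with a log2 fold change of 0.24 (adjusted p = 0.0247 in edgeR, standard error 0.064), and the call was lost when *Neuid* KD replicate 2, 3, 4, 5 or 6 or control replicate 1, 4, 5 or 6 was left out (0.20 to 0.25, adjusted p of up to 0.149). Without *Neuid* KD replicate 1, *Grik2* (0.24, adjusted p = 0.0110 in edgeR) and the obligatory NMDA receptor subunit *Grin1* (-0.17, adjusted p = 0.0108 in edgeR) were called as well, both named after their values had been seen. *Grin1* stood at -0.16 with all libraries (adjusted p = 0.0711 in edgeR). It was called lower in 11 of 24 alternatives, DESeq2, RLE and upper-quartile scaling included, with an adjusted p from 3.9e-05 to 0.820. *Grik2* stood at 0.22 with all libraries (adjusted p = 0.0931 in edgeR). *Grik2* was called in 7 of the 24, with an adjusted p of up to 1.00.

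Cell type markers were summed per library beside these results. Over all tested genes 8.72% were called and 18.8% had an unadjusted p under 0.05 in edgeR. The counts of called markers here and below stand beside these shares. For neurons, 1 of 10 markers rose and 1 fell, the sum was between 6162 and 7274 CPM in control (median 6945) and between 6053 and 7337 CPM in *Neuid* KD (median 7079), and the most abundant gene was *Map2*. Markers of excitatory neurons summed to 1051 to 1226 CPM in control (median 1155) and 1144 to 1250 CPM in *Neuid* KD (median 1225), with 1 of 8 called, lower, and *Neurod6* most abundant. Those of inhibitory neurons summed to 191 to 224 CPM (median 193) and 178 to 208 CPM (median 196), with *Gad1* most abundant. Of these 9 markers 0 were called by edgeR and 2 had an unadjusted p under 0.05, beside 18.8% of all tested genes. The neuronal sums overlapped between the groups.

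The sums for astrocytes and for oligodendrocyte precursors were higher in *Neuid* KD. Of 10 astrocyte markers 10 rose, and their sum went from 1805 to 2269 CPM in control (median 2090) to between 3247 and 3939 CPM in *Neuid* KD (median 3776), with *Slc1a2* most abundant. Of 8 markers of oligodendrocyte precursors 3 rose (37.5%, beside 8.72% called among all tested genes). Their sum was between 103 and 122 CPM in control (median 111) and between 254 and 300 CPM in *Neuid* KD (median 277). *Olig1* was most abundant. The precursor sum rested on *Olig1*, with a mean of 78.2 CPM under control and 216 CPM under *Neuid* gapmers, and on *Olig2*, with means of 10.5 and 33.6 CPM. Also called was *Lhfpl3*, with an adjusted p of 0.0499 in edgeR and overlapping groups. The other 5 of the 8 were not called by edgeR, and 2 of the 8 had a negative log2 fold change. Neither sum overlapped between the groups. In bulk samples more or fewer cells of a type and more or less RNA per cell cannot be told apart, and the part of glial RNA in the values of *Gria1* and of the called genes was not tested.

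Markers of oligodendrocytes summed to 26.3 to 33.8 CPM in control (median 29.2) and 23.1 to 34.3 CPM in *Neuid* KD (median 25.8), with *Cnp* most abundant and 1 of 4 tested genes lower. Markers of microglia summed to 14.5 to 19.8 CPM (median 16.6) and 12.7 to 19.3 CPM (median 13.4). Those of endothelial cells summed to 1.71 to 15.6 CPM (median 6.42) and 0.889 to 13.7 CPM (median 3.69), with *Pecam1* most abundant. The endothelial sum was highest in the libraries of highest background: 15.6 CPM in control replicate 1 and 13.7 CPM in *Neuid* KD replicate 1. It was therefore not read as cell content, and the part of background reads in these low sums was not tested. Markers of fibroblasts and mural cells summed to 39.7 to 71.0 CPM (median 49.6) and 37.4 to 60.0 CPM (median 42.9), with *Dcn* most abundant. In the last 3 lists 0 genes were called by edgeR (0 at an unadjusted p under 0.05), the groups overlapped in each of these 4 sums, and no marker was at 0 reads in every library.

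The genes most like each AMPA receptor gene were found by Pearson correlation over the 12 libraries, as deviations of log2 CPM from the group mean, among 8927 tested genes whose mean reached 10 CPM. *Gria1* was followed most closely by *Atp8a1* (r = 0.988), *Gapvd1* (r = 0.986) and *Ctnnd2* (r = 0.986), and *Gria2* by *Galnt17* (r = 0.977), *Ids* (r = 0.974) and *Hpcal4* (r = 0.972). The closest gene was *Rbsn* for *Gria3* (r = 0.939) and *Snupn* for *Gria4* (r = 0.946). For the TARPs it was *Cmtm4* for *Cacng2* (r = 0.948), *Hace1* for *Cacng3* (r = 0.880), *Ppp2r1a* for *Cacng4* (r = 0.979) and *Sik3* for *Cacng8* (r = 0.922). It was *Mboat2* for *Cnih2* (r = 0.970) and *Cx3cl1* for *Shisa9* (r = 0.939). *Gria1* and *Gria2* followed each other over the 12 libraries with r = 0.947. Libraries share their depth and background across genes, so these values are a description. The 12 libraries include *Neuid* KD replicate 1, the lowest of its group in 8 of the 10 genes. A single library far from its group can raise such an r, and no correlation is given without it.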

How the data were processed

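Counts per gene were taken as the authors deposited them. The authors aligned reads to mm10 (GRCm38) with STAR and counted them with featureCounts. The strand setting is not given in the sources used here. Symbols, positions and exon lengths came from GENCODE. Counts were scaled with TMM and filtered with filterByExpr in edgeR 4.0.16 (R 4.3.3), and *Neuid* KD was compared with control by its quasi-likelihood test, with Benjamini-Hochberg adjustment over 19578 genes. The pipeline was tested on simulated data. The alternatives were DESeq2 1.42.0, RLE and upper-quartile scaling, no filter, RUVs factors, the background as a covariate, libraries split by background, offsets for GC content and length, a replicate block, a fold-change minimum and leaving out each library. Offsets fitted on genes of at least 10 CPM were added after seeing the data. Named are the AMPA receptor genes, the called genes of each list (with 1 left out) or else the largest change, the most abundant marker of each cell type but microglia and the 3 genes most like each AMPA receptor gene, of which 1 is printed for most. Members and lists were chosen with earlier results of these data known.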

Additional observations from a re-analysis of the deposited data

Results flagged for a closer look

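In 7 of 96 groups of 6 libraries, 1 library lay far from the rest of its group, by a gap to its neighbour large against the whole range of the group. The groups were control and *Neuid* KD for the AMPA receptor genes, *Neuid*, the named genes of the related lists, the marker sums, the shares and the library totals. Chance puts about 5% of independent groups there, but these groups share libraries, and *Shisa6* and *Shisa7* were named after their values had been seen. The 5% is therefore no reference for this count. In 6 of the 7 it was *Neuid* KD replicate 1, at the low end. *Gria1* was at 519 CPM in it and between 621 and 658 CPM in the other 5 *Neuid* KD libraries. *Dlg2* was at 359 CPM, beside 430 to 465 CPM in the others. *Nptx1* was at 155 CPM, beside 189 to 208 CPM. *Grik3* was at 45.0 CPM, beside 55.2 to 58.4 CPM. *Shisa6* was at 125 CPM, beside 184 to 197 CPM, and *Shisa7* at 42.4 CPM, beside 59.2 to 66.0 CPM. In control replicate 5 *Shisa7* was at 75.2 CPM, beside 66.8 to 69.3 CPM in the other control libraries.

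Over all 69 AMPA receptor and related genes, called or not, 19 of 138 groups (13.8%) held such a library, and in 14 of the 19 it was *Neuid* KD replicate 1 at the low end.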

How the results depend on the processing

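The level of *Neuid* kept its direction and its call in 24 of 24 alternatives (log2 fold change -1.93 to -1.74). Of the AMPA receptor genes, 1 in place of 0 was called with 1 or 2 RUVs factors, the background covariate, the libraries under 100 CPM of background, upper-quartile scaling and offsets from genes of at least 10 CPM, an alternative chosen after seeing the data. It was *Gria1* each time. Leaving out each library gave 0 to 1. The other 9 genes were called in 0 of 24 alternatives, with log2 fold changes from -0.27 to 0.14, and 5 of the 9 kept their sign in every one. *Gria2* ran from -0.059 to 0.0084 and *Cacng4* from -0.0097 to 0.049 with each library left out. *Cacng4* was at -0.027 with offsets from genes of at least 10 CPM, -0.059 in the libraries under 100 CPM and -0.033 with upper-quartile scaling. *Cnih2* was at -0.011 in the libraries under 100 CPM, and *Shisa9* at 0.00090 with offsets from the tested genes.

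In the related lists, 12 calls became 2 with offsets for GC content and length, 21 with offsets from genes of at least 10 CPM, 20 and 21 with 1 and 2 RUVs factors, 20 with the background covariate, 6 in the libraries at or over 100 CPM and 18 in those under it, 5 without the filter, 21 with upper-quartile scaling and 3 with an absolute log2 fold change above 0.5. Leaving out each library gave 8 to 16. The 12 called genes and *Adar* kept their sign throughout. Of 21 calls with upper-quartile scaling 10 were higher and 11 lower in *Neuid* KD, beside 10 and 2 as reported, and over all tested genes 1049 were higher and 1259 lower, beside 1235 and 473. The cause was not tested.

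With the replicate number as a block, 1 AMPA receptor gene was called. The block rests on a pairing that the libraries do not show: residual correlation between libraries of the same number was between -0.64 and 0.77.

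Genes of few reads, such as *Cacng3*, allow only wide intervals. Reads without molecular identifiers are not independent molecules, the strand setting is unknown, and *Cacng2* and *Cnih2* overlap genes of the opposite strand. Neither protein, surface receptors nor editing was measured.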
